A study of Mus musculus with 9 samples.

Results

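The 9 genes examined encode digestive proteases of the exocrine pancreas: the chymotrypsins Ctrb1 and Ctrl, the trypsinogens Prss2 and Try4, the elastases Cela1, Cela2a and Cela3b, and the carboxypeptidases Cpa1 and Cpb1. They were taken by gene symbol, a choice made with earlier results of these data known, and all 9 were found among the 23235 symbols of the gene tables, each as 1 locus. All 9 passed the filter on low values, at least 1 FPKM in at least 3 libraries. FPKM is a number of sequenced fragments scaled to the length of the transcript and to all mapped fragments of the library, so levels can be compared between genes as well as between libraries.

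Acinar cells make these enzymes as inactive zymogens, pack them into secretory granules and release them into the gut. There enteropeptidase cleaves trypsinogen to trypsin, and trypsin in turn activates the other zymogens. Trypsin cuts proteins after basic residues, chymotrypsin after large hydrophobic ones and elastase after small ones, and carboxypeptidases A and B trim hydrophobic and basic residues from the carboxyl end. In the embryonic pancreas their transcripts accumulate as acinar cells differentiate, under a complex of the bHLH factor Ptf1a with Rbpjl, which binds an E-box beside a TC-box in promoters of several digestive enzymes.

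RNA sequencing was done on whole pancreas dissected at the e15.5 embryonic stage from Blinc1 knockout (Blinc1-/-), heterozygous (Blinc1+/-) and wild-type embryos, 3 libraries each, all on a mixed background of c57bl/6 and 129sv. Blinc1 is a long noncoding RNA gene next to Nkx2-2, and the study's design sets the embryos with reduced or absent Blinc1 against wild type. Nothing in the labels ties the 3 libraries of a genotype to different embryos or litters. The p-values therefore reflect only how much the libraries themselves varied, which may be technical where libraries share an embryo. In whole tissue, fewer cells of a type and less RNA per cell cannot be told apart.

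The depth implied by the deposited confidence bounds was 19532984 to 25437255 fragments per library. Nkx2-2as, the noncoding gene annotated at the locus, did not exceed 0.142 FPKM anywhere, too low to check the genotype labels. Its neighbour Nkx2-2 had 24.9, 6.08 and 5.48 FPKM in the knockouts, taken as replicates 1, 2 and 3 as in all lists of values here, 6.37, 19.0 and 13.4 FPKM in the heterozygotes, and 15.2, 21.7 and 25.5 FPKM in wild type. Knockout replicate 1 and heterozygote replicate 1, as labelled, thus stood apart from the others of their groups, and results that rest on them are given with and without them. By Xist and the Y-linked genes, all 3 knockout libraries, heterozygote replicate 3 and wild-type replicate 3 were female and the other 4 male. The heterozygous and the wild-type group thus each held more than 1 embryo, which is not known for the knockouts. Sex was partly confounded with genotype, since no knockout library was male. The acinar identity of the tissue was plain in every library, with the colipase gene Clps at 12218 to 23337 FPKM and Ptf1a at 67.6 to 118 FPKM.

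The protease genes lay on 5 chromosomes of mm9, and all are annotated as protein coding. The carboxypeptidase gene Cpa1 occupies chr6:30589221-30595361 on the plus strand, with 10 exons in its longest annotated model, and the trypsinogen genes Try4 (chr6:41252271-41255532, 6 exons) and Prss2 (chr6:41471775-41475078, 5 exons) lie on the same strand of that chromosome. On chromosome 4 are Cela2a (chr4:141370878-141381918, 8 exons) and Cela3b (chr4:136976923-136986435, 8 exons), and on chromosome 8 Ctrb1 (chr8:114210410-114214910, 7 exons) and Ctrl (chr8:108455894-108457762, 7 exons), all 4 on the minus strand. Cela1 (chr15:100504853-100518351, 8 exons) and Cpb1 (chr3:20149383-20174651, 11 exons) are also on the minus strand.

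The promoters of Ctrb1, Cpa1, Cela1 and Cela2a are shown because the first pair are the most abundant transcripts of the set and the proportion of the elastases to each other differed between libraries. The 250 bases before the RefSeq transcription start (GRCm38.p6) are shown 5′ to 3′ on the gene's own strand. Capitals mark TGGGAAA (the TC-box, on either strand), a CANNTG E-box no more than 20 bases from it, and TATAAA (also sought on either strand).
Ctrb1, chr8:111691011-111691260, minus strand: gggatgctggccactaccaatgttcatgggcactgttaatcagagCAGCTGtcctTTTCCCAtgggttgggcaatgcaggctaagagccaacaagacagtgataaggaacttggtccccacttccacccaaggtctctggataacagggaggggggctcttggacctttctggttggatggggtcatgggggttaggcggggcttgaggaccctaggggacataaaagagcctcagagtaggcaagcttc
Cpa1, chr6:30638968-30639217, plus strand: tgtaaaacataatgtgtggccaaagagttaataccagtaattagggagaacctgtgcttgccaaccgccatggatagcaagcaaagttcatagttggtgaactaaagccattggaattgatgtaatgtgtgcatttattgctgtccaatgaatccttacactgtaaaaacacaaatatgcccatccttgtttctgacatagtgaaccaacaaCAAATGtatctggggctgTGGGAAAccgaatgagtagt
Cela1, chr15:100687921-100688170, minus strand: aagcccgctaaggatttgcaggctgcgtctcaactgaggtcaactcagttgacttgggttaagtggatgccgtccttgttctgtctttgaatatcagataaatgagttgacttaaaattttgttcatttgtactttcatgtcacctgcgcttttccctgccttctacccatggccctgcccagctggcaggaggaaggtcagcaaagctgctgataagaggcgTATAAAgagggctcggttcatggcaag
Cela2a, chr4:141826006-141826255, minus strand: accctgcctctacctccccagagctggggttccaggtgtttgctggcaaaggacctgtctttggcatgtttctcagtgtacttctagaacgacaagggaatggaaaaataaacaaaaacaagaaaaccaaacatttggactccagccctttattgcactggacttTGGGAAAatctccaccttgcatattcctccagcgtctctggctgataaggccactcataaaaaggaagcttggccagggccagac
In Ctrb1 the E-box CAGCTG stands 4 bases before TTTCCCA, which is TGGGAAA on the other strand, while in Cpa1 CAAATG precedes TGGGAAA close to the start. TGGGAAA was present, on either strand, in 4 of the 9 protease promoters (Cpa1, Ctrb1, Cela2a and Prss2), against 6.82% of 32851 RefSeq promoters read over the same 250 bases. It had a CANNTG within 20 bases in Cpa1 and Ctrb1, 2 of the 9, against 1.17% of all promoters. TATAAA was present in 3 of the 9 (Cela1, Prss2 and Try4), each time on the gene's own strand. It was present in 12.4% of all promoters when either strand counted. CANNTG alone was present in 9 of 9, against 66.2%. These matches describe letters in a window, and no binding was measured.

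The trypsinogens are near copies of each other, which limits how far their reads can be assigned. The first 90 coding bases of Try4, its closest relative Try5 and Prss2 (GENCODE vM1, mm9, chromosome 6) are shown for that reason, with capitals at the bases that differ from Try4.
Try4: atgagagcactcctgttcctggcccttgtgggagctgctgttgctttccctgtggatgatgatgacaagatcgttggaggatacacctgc
Try5: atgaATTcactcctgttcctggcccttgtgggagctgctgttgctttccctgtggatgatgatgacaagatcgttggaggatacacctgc
Prss2: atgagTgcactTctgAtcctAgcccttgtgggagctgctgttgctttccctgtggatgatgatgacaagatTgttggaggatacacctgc
Over this stretch Try5 differed from Try4 at 3 bases and Prss2 at 5. Over 741 coding bases, Try4 was identical to Try5 at 97.4% of positions, to Try10 at 95.4% and to Prss2 at 91.6%. Of the 752 stretches of 50 bases in the Try4 transcript, 483 (64.2%) also occurred in transcripts of other genes, 345 of them in Try5. Prss2 shared 60 of 766 stretches (7.83%) with 5 genes, and Cela3b shared 291 of 877 (33.2%) with the predicted gene Gm13011, whereas the other 6 protease genes shared none. The levels of Try4, and in part those of Cela3b and Prss2, are therefore uncertain, since the handling of reads with several hits could move fragments between copies.

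The means of the 9 genes over libraries with an estimate spanned a 3763-fold range. The Ctrb1 mean leaves out 4 failed estimates, which are missing high values, so the genes are not compared over the same libraries. Ctrb1 was the highest at a mean of 52678 FPKM over the 5 libraries with an estimate, and Cpa1 followed at 9060 FPKM over 9 libraries; the ranges of these genes did not overlap each other or any other. Cela2a, Cela1 and Cela3b came next at 1868, 1860 and 1731 FPKM and could not be put in order, since Cela2a exceeded Cela1 in 4 of 9 libraries and Cela1 exceeded Cela3b in 4 of 9. Cpb1 at 1060, Prss2 at 673 and Try4 at 344 FPKM kept their order in 9 of 9 libraries, although the ranges of neighbours overlapped. Ctrl was the lowest at 14.0 FPKM, from only 74.0 to 525 implied fragments per library.

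**Figure D1:**
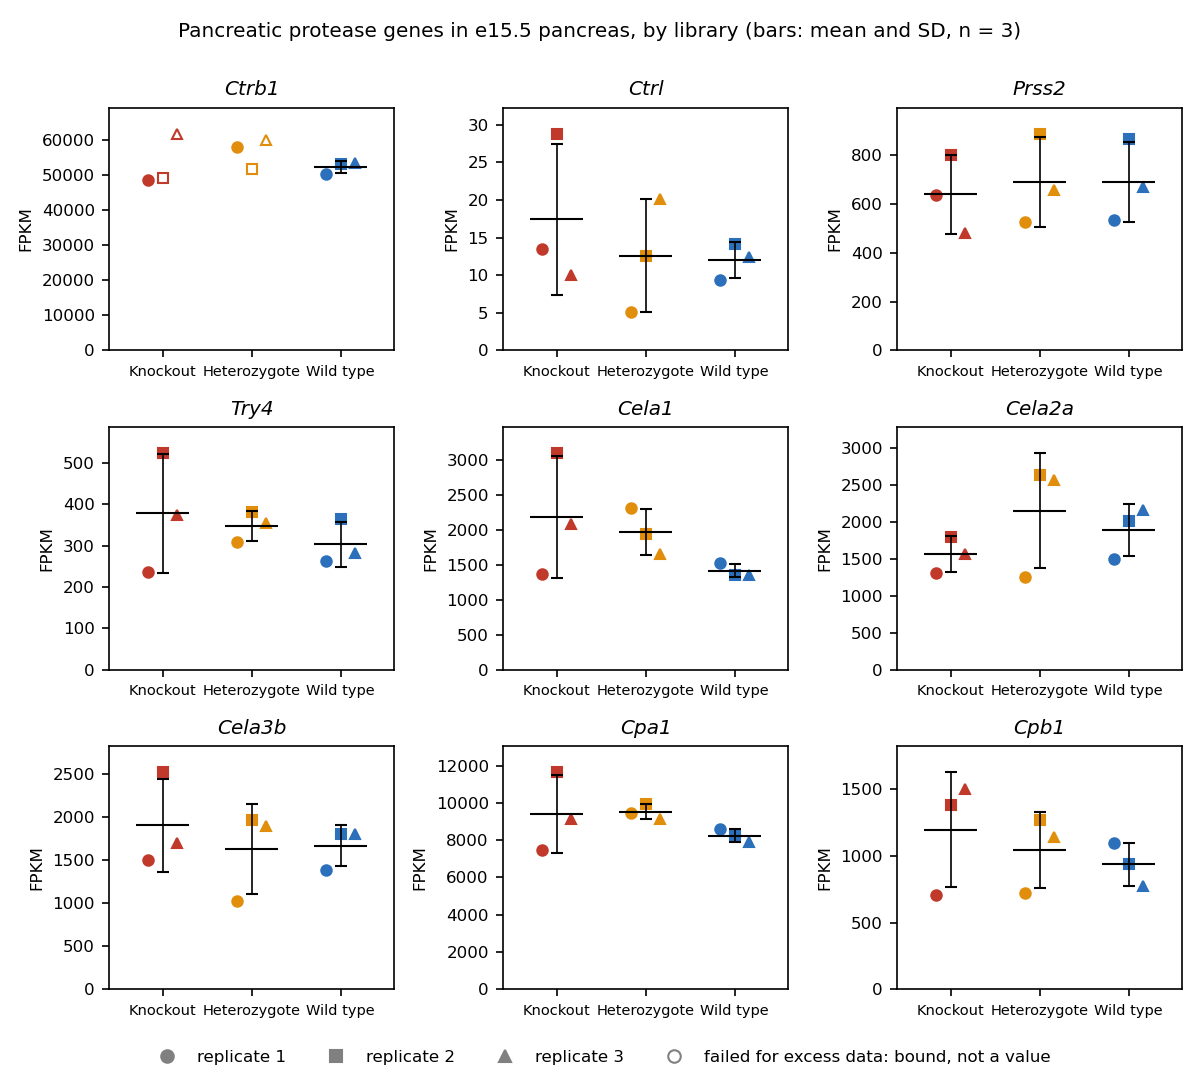
FPKM of each protease gene in the 3 knockout, 3 heterozygous and 3 wild-type libraries on linear axes from 0, with marker shape for the replicate number and bars for the mean and SD of 3 libraries. Open Ctrb1 symbols are not measurements but the conditional lower bounds of 4 failed estimates (49046 to 61779 FPKM), and knockout replicate 2 is the highest library for Cpa1, Ctrl, Cela1, Cela3b and Try4.

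Ctrb1, the chymotrypsinogen B gene, was measured in 5 libraries only. It was at 48638 FPKM in knockout replicate 1, at 57865 FPKM in heterozygote replicate 1, and at 50327, 53148 and 53410 FPKM in wild type. In knockout replicates 2 and 3 and heterozygote replicates 2 and 3 the estimate had failed for excess data, which means that more fragments fell on the locus than the software would process, and the 0 listed there stands for a missing high value. The 4 failed Ctrb1 estimates were among 9 failures of this kind in the whole series, all at digestive enzyme genes (Ctrb1, Pnliprp1, Amy2a5 and Amy2a2), with 5 of them in knockout replicate 2, 1 in knockout replicate 3, 2 in heterozygote replicate 2, 1 in heterozygote replicate 3 and 0 in wild type. Both libraries that kept a Ctrb1 estimate among the mutants were those that stood apart at Nkx2-2.

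The failed Ctrb1 values can be bounded only under an assumption. The most fragments implied for any estimated gene in the series were the 892034 of Ctrb1 in wild-type replicate 3, against 874872 in knockout replicate 1 and 835650 in heterozygote replicate 1. If each failed library held more fragments than that, its Ctrb1 level lay above 49046 FPKM in knockout replicate 2, 61779 FPKM in knockout replicate 3, 51631 FPKM in heterozygote replicate 2 and 59839 FPKM in heterozygote replicate 3. The bounds of the replicates numbered 3 exceeded every estimated value, including the 53410 FPKM that was highest in wild type. The bounds of the replicates numbered 2 lay within the estimated range. In the 5 libraries with an estimate, Ctrb1 alone took 3.44% (knockout replicate 1), 4.09% (heterozygote replicate 1) and 3.58%, 3.80% and 3.79% (wild type) of all implied fragments.

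Ctrl, a chymotrypsin-like protease gene, varied most among the 9. It was at 13.5, 28.8 and 9.96 FPKM in knockouts, 5.12, 12.6 and 20.1 FPKM in heterozygotes and 9.40, 14.1 and 12.4 FPKM in wild type. The coefficient of variation over the 9 libraries was 49.1%, against 13.7% for Cpa1, and the heterozygous range enclosed all wild-type values while the knockout range reached further up. At 74.0 implied fragments in heterozygote replicate 1, the lowest value, counting error alone came to 11.6%.

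The trypsinogens differed in how the libraries ranked. Prss2 was at 638, 802 and 479 FPKM in knockouts, 525, 888 and 659 FPKM in heterozygotes and 534, 864 and 671 FPKM in wild type. Its 3 groups covered almost the same range, and replicate 2 was the highest of each group. Try4 was at 237, 524 and 373 FPKM in knockouts, 309, 381 and 356 FPKM in heterozygotes and 262, 366 and 283 FPKM in wild type. Here knockout replicates 1 and 2 were the lowest and the highest of all 9 libraries, so that the knockout range enclosed the others.

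Among the elastases, Cela1 had its lowest spread in wild type. It was at 1366, 3106 and 2087 FPKM in knockouts, 2316, 1949 and 1660 FPKM in heterozygotes and 1530, 1366 and 1364 FPKM in wild type. Every heterozygous library lay above every wild-type library, and so did knockout replicates 2 and 3, whereas knockout replicate 1 lay among the wild types. Cela2a was at 1316, 1800 and 1569 FPKM in knockouts, 1255, 2636 and 2569 FPKM in heterozygotes and 1495, 2016 and 2156 FPKM in wild type. Heterozygote replicates 2 and 3 were the highest and heterozygote replicate 1 the lowest, with the knockouts in the lower part of the range. Cela3b was at 1492, 2513 and 1691 FPKM in knockouts, 1028, 1963 and 1897 FPKM in heterozygotes and 1387, 1802 and 1803 FPKM in wild type. All 3 groups overlapped.

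The carboxypeptidase gene Cpa1, which also marks the tips of the early pancreatic epithelium, was the steadiest of the 8 genes measured in every library. It was at 7457, 11632 and 9157 FPKM in knockouts, 9462, 9947 and 9155 FPKM in heterozygotes and 8604, 8226 and 7898 FPKM in wild type. Every heterozygous library lay above every wild-type library, as did knockout replicates 2 and 3, while knockout replicate 1 lay below them all. Cpb1 was at 704, 1386 and 1500 FPKM in knockouts, 721, 1274 and 1140 FPKM in heterozygotes and 1100, 939 and 777 FPKM in wild type. The mutant replicates numbered 1 were the 2 lowest and the other 4 mutant libraries the 4 highest, with wild type between them.

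In knockout against wild-type pancreas, no protease gene passed the test. The main test was limma on log2(FPKM + 1), fitted on all 13310 genes that passed the filter, with Benjamini-Hochberg adjustment and a threshold of 0.05. None of the 9 genes was called, nor were any of the other genes (0% of all tested), and 0 of the 9 reached an unadjusted p under 0.05, against 8.41% (1119) of all genes. That count turned on single libraries: without knockout replicate 1, 4 proteases (Cela1, Try4, Cpa1 and Cpb1) and 2631 of 13309 genes had an unadjusted p under 0.05 by limma, and without knockout replicate 2, 0 proteases and 399 genes. With voom on the fragment numbers implied by the confidence bounds, 0 of the 8 genes that could be fitted were called and 0 reached an unadjusted p under 0.05.

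The largest estimated difference between knockout and wild type was at Cela1, at 2186 ± 874 FPKM in knockouts and 1420 ± 95.6 FPKM in wild type (SD, n = 3 each). Its log2 change was 0.54 (SE 0.25, limma adjusted p = 0.575), with 2 of 3 knockout libraries above all wild types. Without knockout replicate 1 the change was 0.84 (limma adjusted p = 0.0869), and without knockout replicate 2 it was 0.25 (limma adjusted p = 0.973); over all alternatives the adjusted p ran from 0.0808 to 0.973. Cela2a went the other way, at 1562 ± 242 FPKM in knockouts and 1889 ± 348 FPKM in wild type (SD, n = 3 each), with a log2 change of -0.27 (SE 0.27, limma adjusted p = 0.734). The change of Cela2a was -0.15 without knockout replicate 1, -0.16 without wild-type replicate 3, -0.43 without wild-type replicate 1 and -0.54 with sex as a covariate. Cela3b averaged 1899 ± 541 FPKM in knockouts and 1664 ± 240 FPKM in wild type (SD, n = 3 each; log2 change 0.16, SE 0.27), and its estimate was -0.06 without knockout replicate 2. The 3 elastase genes thus had no common direction.

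Both carboxypeptidase genes had positive estimates in knockouts that rested on 2 libraries. Cpa1 averaged 9415 ± 2099 FPKM in knockouts and 8243 ± 353 FPKM in wild type (SD, n = 3 each), a log2 change of 0.17 (SE 0.15, limma adjusted p = 0.697). Cpb1 averaged 1197 ± 431 FPKM in knockouts and 938 ± 162 FPKM in wild type (SD, n = 3 each), a log2 change of 0.29 (SE 0.30, limma adjusted p = 0.738). Without knockout replicate 1 the changes were 0.33 for Cpa1 and 0.63 for Cpb1, and neither was called (limma adjusted p = 0.179 and 0.180). Without knockout replicate 2 they were 0.0044 and 0.15, and without knockout replicate 3 that of Cpb1 was 0.088.

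The trypsinogens and chymotrypsins did not differ beyond their spread either. Prss2 averaged 640 ± 161 FPKM in knockouts and 690 ± 166 FPKM in wild type (SD, n = 3 each), a log2 change of -0.11 (SE 0.24, limma adjusted p = 0.883), and the sign turned without knockout replicate 3 (0.08) or wild-type replicate 2 (0.06). Try4 averaged 378 ± 144 FPKM in knockouts and 304 ± 54.7 FPKM in wild type (SD, n = 3 each), a log2 change of 0.26 (SE 0.25, limma adjusted p = 0.722). For Try4 the value was 0.56 without knockout replicate 1 and -0.02 without knockout replicate 2. Ctrl averaged 17.4 ± 10.0 FPKM in knockouts and 12.0 ± 2.38 FPKM in wild type (SD, n = 3 each), a log2 change of 0.39 (SE 0.46, limma adjusted p = 0.768) that was -0.03 without knockout replicate 2.

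For Ctrb1 the fit set 1 knockout library against 3 wild-type libraries, with the failed estimates left out, and gave a log2 change of -0.10. The spread among knockouts cannot be estimated from 1 library. The SE of this same change was 0.25 in the main fit, 1.90 with no filter on low values and 0.15 with the filter of 10 FPKM. Ctrb1 was the only one of the 9 genes whose groups did not overlap, by that 1 library, in a comparison in which 6.64% of all genes had every knockout library below every wild-type library and 4.55% the reverse. With the failed values set to the highest estimate of the gene, the log2 change was 0.06. The direction of Ctrb1 in knockouts is therefore not given by these data.

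**Figure D2:**
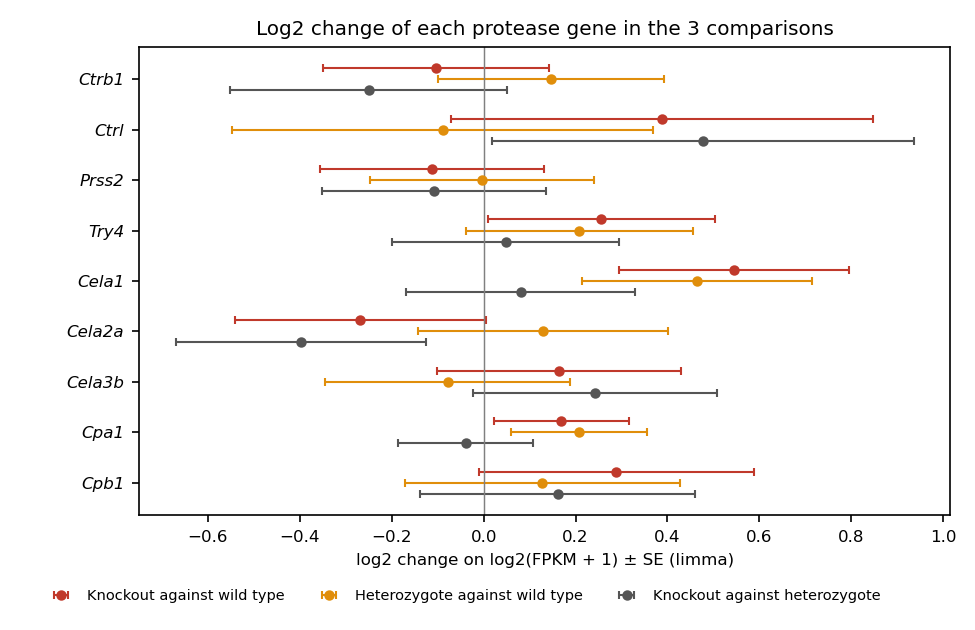
Log2 change on the log2(FPKM + 1) scale of each protease gene, with its SE from limma, for knockout against wild type, heterozygote against wild type and knockout against heterozygote. No estimate lies further from 0 than the 0.54 of Cela1 in knockout against wild type, and Cela2a is the only elastase gene with a negative value there (-0.27). Ctrb1 has 1 measured library in each mutant group, so its SE does not measure the spread within those groups.

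In heterozygous against wild-type pancreas, again 0 of the 9 genes were called by limma (0% of all genes tested), and 0 of the 9 reached an unadjusted p under 0.05, against 3.93% of all genes. With voom 0 were called and 0 reached an unadjusted p under 0.05. Cpa1 averaged 9521 ± 399 FPKM in heterozygotes and 8243 ± 353 FPKM in wild type (SD, n = 3 each), with a log2 change of 0.21 (SE 0.15, limma adjusted p = 0.945) and 3 of 3 heterozygous libraries above all wild types. Cela1 averaged 1975 ± 329 FPKM in heterozygotes and 1420 ± 95.6 FPKM in wild type (SD, n = 3 each), with the same separation. Its log2 change was 0.46 (SE 0.25, limma adjusted p = 0.945), and 0.34 without heterozygote replicate 1, its highest heterozygous library. Of the genes measured in every library, only Cpa1 and Cela1 were separated in this way. With Ctrb1 counted, 3 of the 9 genes had all measured heterozygous values above all wild-type values, against 3.55% of all genes tested. None of the 9 had them all below, against 7.05%. For Ctrb1 this rested on 1 heterozygous library, an order that arises more easily than 3 against 3. The conditional bound of heterozygote replicate 2 (51631 FPKM) lay below wild-type values of 53148 and 53410 FPKM, so the separation of Ctrb1 is not known. The comparison of heterozygotes with wild type shares its wild-type libraries with that of the knockouts.

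The estimates for the other 7 protease genes in heterozygotes were small, from -0.09 for Ctrl to 0.21 for Try4 on the log2 scale. Cela2a averaged 2153 ± 779 FPKM in heterozygotes and 1889 ± 348 FPKM in wild type (SD, n = 3 each; log2 change 0.13), and it was 0.48 without heterozygote replicate 1. Cela3b averaged 1629 ± 522 FPKM in heterozygotes and 1664 ± 240 FPKM in wild type (SD, n = 3 each; log2 change -0.08), and it was 0.22 without that library. Cpb1, Prss2 and Try4 averaged 1045 ± 288, 690 ± 184 and 349 ± 36.1 FPKM in heterozygotes and 938 ± 162, 690 ± 166 and 304 ± 54.7 FPKM in wild type (SD, n = 3 each). Ctrl averaged 12.6 ± 7.48 FPKM in heterozygotes and 12.0 ± 2.38 FPKM in wild type (SD, n = 3 each), and its change was 0.40 without heterozygote replicate 1. Ctrb1 had a log2 change of 0.15 from its single heterozygous estimate.

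Between knockout and heterozygous pancreas the 9 genes had 5 positive and 4 negative estimates, 0 were called (0% of all genes tested), and 0 had an unadjusted p under 0.05, against 2.22% of all genes. The counts of the proteases were also 0 with voom. Every limma adjusted p of the 9 was 0.9998, with effects from -0.40 to 0.48 on the log2 scale. The ends of that range were Cela2a, at 1562 ± 242 FPKM in knockouts and 2153 ± 779 FPKM in heterozygotes (SD, n = 3 each), and Ctrl, at 17.4 ± 10.0 FPKM in knockouts and 12.6 ± 7.48 FPKM in heterozygotes (SD, n = 3 each). Without heterozygote replicate 1 the change of Cela2a was -0.75 and that of Ctrl -0.01. Apart from Ctrb1, with 1 library a group, the knockout and heterozygous values of all the genes overlapped; 3.48% of all genes had every knockout library above and 2.43% every knockout library below the heterozygotes.

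The spread lay mainly between libraries within a group. Knockout replicate 2 was the highest of the 9 libraries for 5 of the 8 genes measured everywhere (Cpa1, Ctrl, Cela1, Cela3b and Try4). Heterozygote replicate 2 was the highest for Cela2a and Prss2 and knockout replicate 3 for Cpb1. The lowest libraries were knockout replicate 1 for Cpa1, Cpb1 and Try4, heterozygote replicate 1 for Ctrl, Cela2a and Cela3b, knockout replicate 3 for Prss2 and wild-type replicate 3 for Cela1. None of these 8 genes thus had its highest value in a wild-type library. The share of all genes tested without a wild-type maximum was not computed, and Ctrb1 was left out for its failed estimates.

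**Figure D3:**
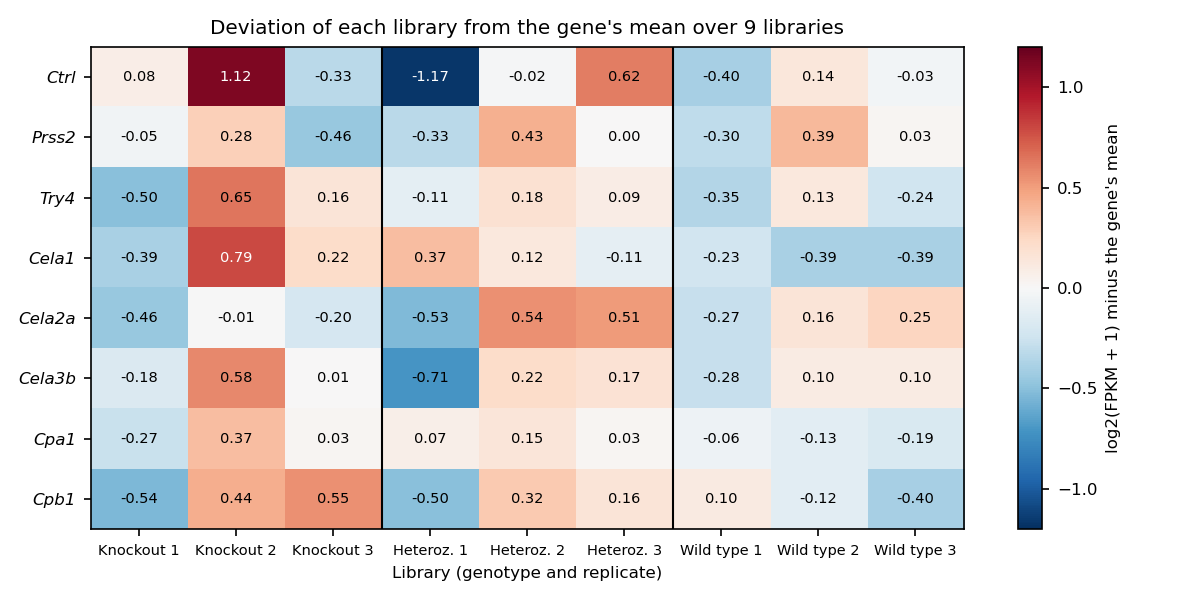
Deviation of each library (columns, grouped by genotype and replicate number) from the gene's own mean over 9 libraries on the log2(FPKM + 1) scale, for the 8 protease genes with an estimate in every library (rows). Knockout replicate 2 is positive for every gene but Cela2a (-0.01), and heterozygote replicate 1 is the most negative library for Ctrl (-1.17), Cela3b (-0.71) and Cela2a (-0.53) but positive for Cela1 (0.37).

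Summed over the 8 genes, the protease transcripts stood at 13224, 21793 and 16866 FPKM in knockouts, 15622, 19049 and 17456 FPKM in heterozygotes and 14923, 15592 and 14964 FPKM in wild type. The 3 wild-type sums lay close together, while the knockout sums reached from below to above all others. As a share of the implied fragments, leaving out the 4 genes with failed estimates, the 8 genes took 1.65%, 2.74% and 2.15% in knockouts, 2.00%, 2.36% and 2.16% in heterozygotes and 1.90%, 1.93% and 1.83% in wild type. In this share all 3 heterozygous libraries and knockout replicates 2 and 3 lay above the wild types, and knockout replicate 1 below them. The share mainly followed Cpa1, which held 271164 of the 379187 fragments in heterozygote replicate 1. In the mean log2(FPKM + 1) of the 8 genes, which weights them equally, heterozygote replicate 1 was the lowest library at 9.26. Knockout replicate 1 was at 9.34 and wild type at 9.40 to 9.66. Leaving out both knockout replicate 1 and heterozygote replicate 1, the log2 changes in knockouts against wild type were 0.84 for Cela1, 0.63 for Cpb1, 0.56 for Try4 and 0.33 for Cpa1. None of the 8 passed the threshold then either, with limma adjusted p values of 0.0808 for Cela1 and 0.0949 for Cpb1, and these libraries were set apart by a measured level rather than by a label.

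Ratios between the genes within a library do not depend on the library's total, and 3 of them are described because their values set libraries apart, without a test. Cela1 over Cela2a was 1.04, 1.73 and 1.33 in knockouts, 1.85, 0.739 and 0.646 in heterozygotes and 1.02, 0.677 and 0.633 in wild type. It was highest in knockout replicates 2 and 3 and heterozygote replicate 1, the 3 libraries with the lowest Nkx2-2. Cela3b over Cela2a was 1.13, 1.40 and 1.08 in knockouts, 0.819, 0.745 and 0.738 in heterozygotes and 0.928, 0.893 and 0.837 in wild type. In this ratio all 3 knockout libraries lay above all others, and all 3 heterozygous libraries below all wild types. The share of gene pairs that separate the groups in this way was not computed. Cela3b also carries the uncertainty of shared reads, since 33.2% of its 50-base stretches occurred in Gm13011. Prss2 over Try4 was 2.70, 1.53 and 1.28 in knockouts, 1.70, 2.33 and 1.85 in heterozygotes and 2.04, 2.36 and 2.37 in wild type. It was lowest in the same 3 libraries, and it carries the uncertainty of reads shared between trypsinogens. Pla2g1b, the gene of the secreted pancreatic phospholipase A2, was named after its values were seen: it was at 1.81, 162 and 130 FPKM in knockouts, 122, 8.29 and 5.66 FPKM in heterozygotes and 5.54, 2.35 and 3.09 FPKM in wild type, high in those 3 libraries again.

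**Figure D4:**
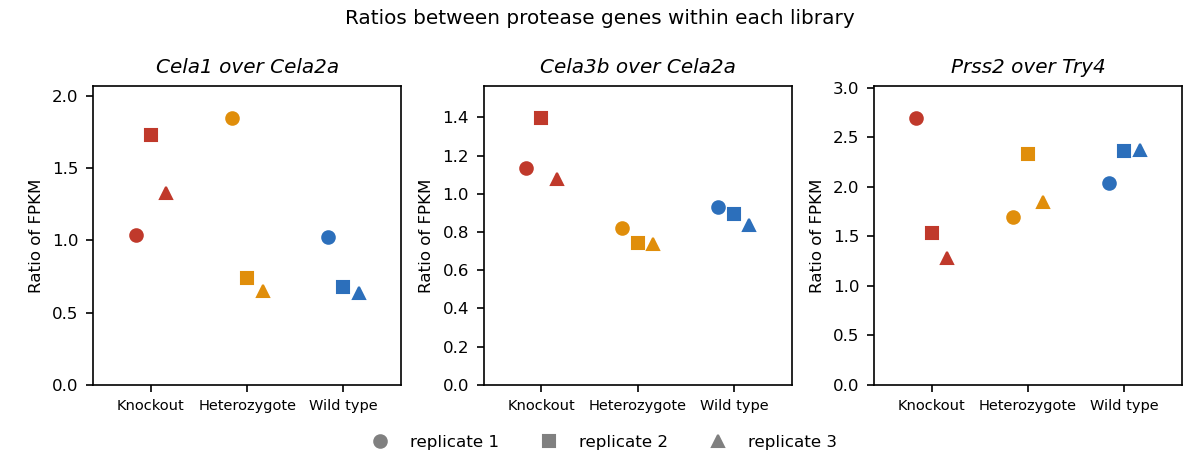
Ratio of FPKM between pairs of protease genes within each library, on linear axes from 0, for knockout, heterozygous and wild-type libraries with marker shape for the replicate number. Cela3b over Cela2a is 1.08 to 1.40 in knockouts, above the 0.738 to 0.819 of heterozygotes and the 0.837 to 0.928 of wild type, whereas Cela1 over Cela2a is high in heterozygote replicate 1 (1.85) as well as in knockout replicates 2 and 3 (1.73 and 1.33). The pairs were picked because their values set libraries apart, without a test.

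The other pancreatic proteases, a list of 13 genes of which 12 were measured and 11 passed the filter, were read in the same fit. In knockouts against wild type 0 were called, 9 estimates were positive and 2 negative, and their median log2 change was 0.33, against a median of 0.17 for the 9 genes and -0.03 for all genes tested. The trypsinogen Prss1 averaged 1488 ± 425 FPKM in knockouts, 1366 ± 293 FPKM in heterozygotes and 1127 ± 183 FPKM in wild type, and Try10 averaged 1018 ± 266 FPKM in knockouts, 887 ± 115 FPKM in heterozygotes and 775 ± 84.4 FPKM in wild type (SD, n = 3 each). Try5, the closest copy of Try4, was at 534, 1431 and 1057 FPKM in knockouts, 850, 882 and 717 FPKM in heterozygotes and 676, 693 and 592 FPKM in wild type. As for Try4, knockout replicates 1 and 2 were its lowest and highest libraries. Tmprss15, the gene of enteropeptidase, did not exceed 0.293 FPKM in any library.

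Genes of protease inhibitors guard the acinar cell against early activation of the zymogens. Spink3, the acinar trypsin inhibitor, was at 1595, 2099 and 2009 FPKM in knockouts, 1807, 2080 and 1938 FPKM in heterozygotes and 1732, 1831 and 1991 FPKM in wild type. Serpini2 was at 271, 611 and 297 FPKM in knockouts, 258, 323 and 307 FPKM in heterozygotes and 273, 259 and 292 FPKM in wild type. Spink3 was lowest in knockout replicate 1 and Serpini2 stood out in knockout replicate 2 alone. Of the 4 inhibitor genes tested, 0 were called in knockouts against wild type, and all 4 estimates were positive (median 0.25). Over the 9 libraries the highest Spink3 value was 1.32 times the lowest, against 1.56 times for Cpa1, the smallest such ratio among the 8 proteases measured everywhere.

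Among the other acinar products, colipase (Clps) was at 12218, 23337 and 18120 FPKM in knockouts, 14814, 17547 and 16784 FPKM in heterozygotes and 13018, 13728 and 15475 FPKM in wild type. The carboxyl ester lipase Cel was at 1799, 2385 and 1859 FPKM in knockouts, 1800, 2249 and 1880 FPKM in heterozygotes and 1610, 1974 and 1871 FPKM in wild type. Knockout replicate 2 was the highest library for both, as it was for 5 of the proteases. Of the 8 zymogen granule and secretory genes, 7 were tested in knockouts against wild type, with 2 positive and 5 negative estimates (median -0.21), and of the 9 amylase and lipase genes measured 6 were positive and 3 negative (median 0.03); 0 were called in either list. The estimates of Amy2a2, Amy2a5 and Pnliprp1 leave out knockout replicate 2, where the value had failed for excess data and is a missing high one, and the first pair are among the 3 negative estimates. Rnase1, the pancreatic ribonuclease, followed another pattern, at 433, 478 and 133 FPKM in knockouts, 174, 603 and 547 FPKM in heterozygotes and 185, 521 and 478 FPKM in wild type. It was low in knockout replicate 3, heterozygote replicate 1 and wild-type replicate 1, the 3 libraries in which Prss2 was lowest too (479, 525 and 534 FPKM). Sycn, a zymogen granule protein, was lowest in the same 3 libraries, at 286, 284 and 181 FPKM in knockouts, 186, 312 and 331 FPKM in heterozygotes and 203, 314 and 245 FPKM in wild type.

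Transcription factors of acinar cells had positive estimates in knockouts without passing the test. Ptf1a was at 85.2, 118 and 103 FPKM in knockouts, 92.2, 101 and 83.9 FPKM in heterozygotes and 74.4, 67.6 and 85.3 FPKM in wild type (knockout against wild type log2 change 0.42, SE 0.13, limma adjusted p = 0.575). Its partner Rbpjl was at 119, 179 and 256 FPKM in knockouts, 180, 217 and 172 FPKM in heterozygotes and 167, 117 and 158 FPKM in wild type. Of the 8 factors, 7 estimates were positive and 1 negative (median 0.22), and 4 (Ptf1a, Nr5a2, Gata4 and Xbp1) had an unadjusted p under 0.05, against 8.41% of all genes, with 0 called. Knockout replicate 1 lay within the wild-type range for Rbpjl and just inside it for Ptf1a.

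Endocrine, mesenchymal, endothelial and immune markers had mostly negative estimates in knockouts, where 41.5% of all genes tested had positive ones. All 10 mesenchymal genes had negative estimates in knockouts against wild type (median -0.36), and their summed level was 1384 to 1992 FPKM in knockouts, 1575 to 1859 FPKM in heterozygotes and 1738 to 2348 FPKM in wild type. The 12 endocrine genes had 2 positive and 10 negative estimates (median -0.38), with sums of 3165 to 5102 FPKM in knockouts, 3303 to 5092 FPKM in heterozygotes and 4176 to 5883 FPKM in wild type. All 7 endothelial genes (median -0.20; sums of 140 to 178 FPKM in knockouts, 163 to 173 FPKM in heterozygotes and 171 to 201 FPKM in wild type) and all 7 immune genes tested (median -0.39) were negative as well, and 0 genes of these lists were called. An unadjusted p under 0.05 was reached by 3 of the 10 mesenchymal, 2 of the 12 endocrine, 3 of the 7 endothelial and 3 of the 7 immune genes, against the same 8.41%. Of the 12 endocrine, 10 mesenchymal, 7 endothelial and 9 immune markers none was at 0 in any library. Their part in the protease values was not tested.

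**Figure D5:**
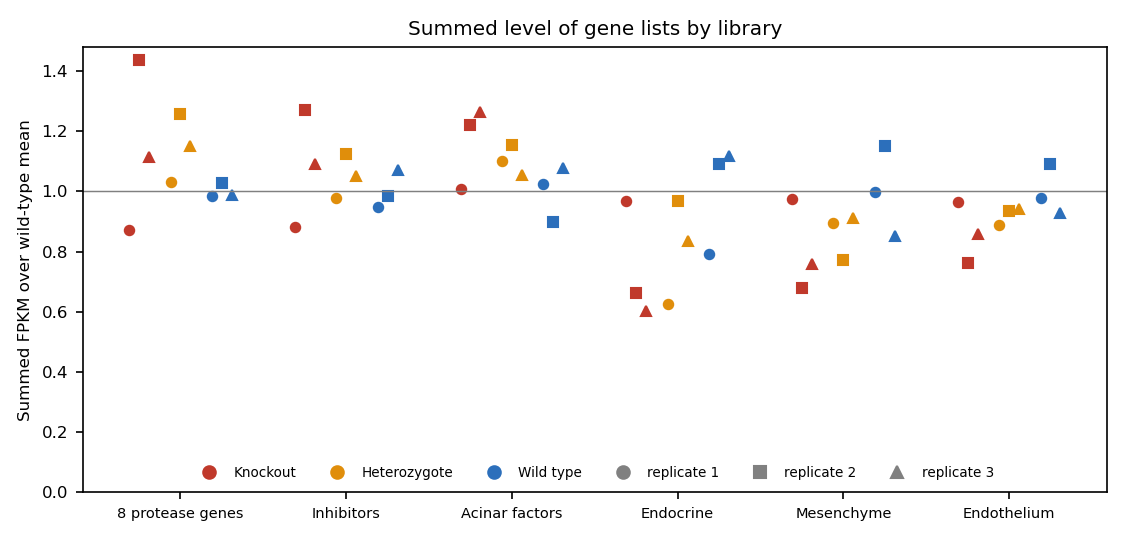
Summed FPKM of each gene list in every library, divided by the mean of the 3 wild-type sums of that list, for knockout, heterozygous and wild-type libraries with marker shape for the replicate number. Knockout replicate 2 is highest for the 8 protease genes (21793 FPKM in all) and lowest for mesenchyme and endothelium (1384 and 140 FPKM).

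Duct, erythroid, gut and liver markers were read in the same way. The duct and trunk list had 4 positive and 4 negative estimates in knockouts against wild type (median 0.02), with sums of 771 to 838 FPKM in knockouts, 757 to 852 FPKM in heterozygotes and 785 to 894 FPKM in wild type. The 8 erythroid genes had 6 positive and 2 negative estimates (median 0.10) and the 5 liver genes 5 negative ones (median -0.52), with 0 called. Erythroid genes, mainly globins, summed to 5143 to 7359 FPKM in knockouts, 3087 to 5895 FPKM in heterozygotes and 4862 to 7675 FPKM in wild type. The liver list, whose sum was mainly Ttr, came to 301 to 454 FPKM in knockouts, 278 to 466 FPKM in heterozygotes and 399 to 570 FPKM in wild type. Ttr alone was at 246 to 490 FPKM over the 9 libraries. It was lowest in knockout replicates 2 and 3 and heterozygote replicate 1 (302, 260 and 246 FPKM). The endocrine sum was lowest in those libraries too (3482, 3165 and 3303 FPKM). Whether Ttr came from liver or endocrine cells was not tested, so this sum is not a measure of liver tissue. Alb was at 36.4 FPKM in wild-type replicate 2 and did not exceed 5.04 FPKM in any other library. Of the gut and stomach genes Muc5ac was at 0 in all 9 libraries and Gkn2 in 8. Their part in the protease values was not tested.

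Outside these lists, the genes whose level over the 9 libraries was most like the mean log2(FPKM + 1) of the 8 proteases were Bet1, Nucb2, Gm10334, Creg1 and Ippk, out of 7109 genes with a mean of at least 10 FPKM. Their Pearson correlations were 0.95, 0.94, 0.91, 0.91 and 0.91 over 9 libraries, and the Spearman correlations 0.98, 0.87, 0.82, 0.90 and 0.92. Without knockout replicate 2 and heterozygote replicate 1, the libraries farthest from the median, the Pearson correlations were 0.92, 0.83, 0.89, 0.81 and 0.84. Bet1, a SNARE protein of transport between endoplasmic reticulum and Golgi, was at 55.4, 72.2 and 60.6 FPKM in knockouts, 55.1, 62.3 and 62.0 FPKM in heterozygotes and 57.1, 57.7 and 57.4 FPKM in wild type. Gm10334 is a predicted gene whose transcript shares 50-base stretches with Try4. As the 5 were picked as the highest of 7109, and the points share library depth and tissue makeup, the values are a description.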

How the data were processed

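RNA was sequenced from whole e15.5 pancreas in 9 libraries, grouped and numbered as in the sample titles. The deposited tables give an FPKM value with its confidence bounds and a status word for every gene, in Cufflinks layout, per the file headers. Per the labels' design text, TopHat 2.0.4 aligned the reads to mm9 with 4 mismatches and up to 10 hits allowed. CASAVA 1.8.2, Cufflinks and DESeq are named in the submitters' processing notes. Which gene annotation and strand setting the authors used is not given in the sources used here.

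FPKM was summed over the loci of a symbol, and an estimate that failed for excess data was treated as missing in that library, so the fit of Ctrb1 used 5 libraries. Genes with at least 1 FPKM in at least 3 libraries (13310) were tested two-sided with limma 3.58.1 (R 4.3.3, intensity trend, genotype as the only term, all 9 libraries in 1 fit) on log2(FPKM + 1), which understates changes of low genes. Adjustment was by Benjamini-Hochberg over all genes tested, and the method was tested on simulated data. Implied fragments come from the upper bound, taken as 2 SE of counting above the FPKM, and cover counting error only. Only 73.5% to 74.4% of low genes (under 500 implied fragments) had a whole number within 0.05, so these were not treated as read counts in the main test. The 20 alternatives comprised another scaling, another pseudocount (0.1), other filters, other treatments of failed estimates, each library left out, 2 groups only, a replicate block, sex as a covariate, and voom on implied fragments.

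All 9 proteases are named with every library. From the lists of other acinar genes up to 4 with the highest mean level and those with a failed estimate were eligible, from lists of other cell types up to 2, and the 5 genes most correlated with the proteases. One gene that was eligible by this rule is not reported here. The members and lists were chosen with earlier results of these data known. Promoters and motifs were taken from RefSeq (GRCm38.p6), where all 9 matched by symbol, and coding sequences from GENCODE vM1 (mm9), aligned with Biopython 1.88. Python 3.11.15 was used otherwise.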

Additional observations from a re-analysis of the deposited data

How the results depend on the processing

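Under the 20 alternatives no protease gene was called in any comparison, and 36 of the 531 recomputed values changed sign. Leaving out both knockout replicate 1 and heterozygote replicate 1, the number of all genes called was 4 in knockout against wild type, 5 in heterozygote against wild type and 5 in knockout against heterozygote, against 0 in each with all libraries. Fitting only the groups compared, 1 gene was called in knockout against wild type and 6 in heterozygote against wild type. Leaving out 1 library at a time, the counts ran from 0 to 1, from 0 to 7 and from 0 to 4 in the same order of comparisons, with the highest counts of heterozygote against wild type and knockout against heterozygote without knockout replicate 1. None of these genes was a protease, but Pla2g1b and Sst were among those called without both libraries numbered 1. The number of proteases with an unadjusted p under 0.05 (limma), 0 in each comparison with all libraries, reached at most 4, 2 and 2 under any alternative in the same order.

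With the replicate number as a block, 0, 1 and 0 genes were called in the same order (the 1 was Lst1). The correlations of same-numbered deviations ran from -0.19 to 0.29 and 3 of 9 were negative. None of the negative ones was in knockout against heterozygote, where replicates 1, 2 and 3 had 0.29, 0.275 and 0.047. With 3 libraries a group, these values cannot settle whether the numbers pair the libraries.

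Of the log2 changes that changed sign, that of Ctrb1 in knockout against wild type was 0.063 with failed values set to the gene's highest estimate. With sex as a covariate, Ctrl was at -0.049 and Cela3b at -0.038 in knockout against wild type, and Cpa1 at 0.019 in knockout against heterozygote. With median-of-ratios scaling Prss2 was at 0.013 in heterozygote against wild type. Without both libraries numbered 1, Ctrl, Cela3b and Prss2 were at 0.40, 0.22 and 0.18 in heterozygote against wild type and Cpa1 at 0.11 in knockout against heterozygote.

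Leaving out 1 library at a time, the ranges that crossed 0 in knockout against wild type were -0.026 to 0.70 for Ctrl, -0.056 to 0.32 for Cela3b and -0.016 to 0.56 for Try4 (each negative without knockout replicate 2), and -0.29 to 0.081 for Prss2 (positive without knockout replicate 3 or wild-type replicate 2). In heterozygote against wild type they were -0.49 to 0.40 for Ctrl, -0.24 to 0.22 for Cela3b and -0.20 to 0.18 for Prss2 (positive without heterozygote replicate 1, Ctrl and Prss2 also without wild-type replicate 2, and Prss2 without heterozygote replicate 3), -0.035 to 0.37 for Cpb1 (negative without heterozygote replicate 2 or wild-type replicate 3) and -0.055 to 0.48 for Cela2a (negative without heterozygote replicate 2 or 3 or wild-type replicate 1). In knockout against heterozygote they were -0.20 to 0.12 for Cpa1 (positive without knockout replicate 1), -0.21 to 0.38 for Cela1 (negative without knockout replicate 2 or heterozygote replicate 3), -0.22 to 0.35 for Try4 (negative without knockout replicate 2 or heterozygote replicate 1), -0.086 to 0.51 for Cpb1 (negative without knockout replicate 3 or heterozygote replicate 1), -0.29 to 0.091 for Prss2 (positive without knockout replicate 3 or heterozygote replicate 2), and -0.012 to 0.88 for Ctrl and -0.060 to 0.41 for Cela3b (both negative without heterozygote replicate 1). Of the values that kept their sign, those in knockout against wild type ran from 0.25 to 0.84 for Cela1, -0.43 to -0.15 for Cela2a, 0.0044 to 0.33 for Cpa1 and 0.088 to 0.63 for Cpb1. Counting error, highest for Ctrl among the proteases, was 4.36% to 11.6% there, against a coefficient of variation of 49.1% over the 9 libraries. The cause of the sign changes was not tested.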

Other observations

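Ratios between trypsinogen copies within a library carry the uncertainty of shared reads, most for Try4 and Try5. Try5 over Try4 was 2.25, 2.73 and 2.83 in knockouts, 2.75, 2.32 and 2.01 in heterozygotes and 2.58, 1.89 and 2.09 in wild type. Prss1 over Prss2 was 1.91, 2.47 and 2.65 in knockouts, 1.96, 1.75 and 2.30 in heterozygotes and 1.96, 1.55 and 1.49 in wild type. In both ratios knockout replicates 2 and 3 were among the 3 highest libraries. Between the carboxypeptidases, Cpa1 over Cpb1 was 10.6, 8.39 and 6.10 in knockouts, 13.1, 7.81 and 8.03 in heterozygotes and 7.82, 8.76 and 10.2 in wild type. These ratios were chosen after their values were seen and were not tested. Ctrc, the chymotrypsin C gene, was at 4.14, 14.9 and 2.01 FPKM in knockouts, 2.46, 3.21 and 2.86 FPKM in heterozygotes and 1.96, 2.72 and 3.65 FPKM in wild type, with knockout replicate 2 far above the rest.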
